A study of Arabidopsis thaliana with 2 samples.

Results

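The Aux/IAA and ARF genes encode the transcription regulators through which the plant hormone auxin controls gene expression. All 42 loci were taken by locus identifier, 29 Aux/IAA genes (IAA1 to IAA20 and IAA26 to IAA34) and 13 ARF genes (ARF1 to ARF10, ARF16, ARF17 and ARF19). They are 42 of the 27444 protein-coding genes of the annotation, and the other 27402 served as the background. Chromatin was precipitated with an anti-FLAG antibody and sequenced from Arabidopsis thaliana plants of the Col-0 ecotype, 13 days after germination. The tested plants carried pMBD9:MBD9-3xFLAG, a cloned genomic copy of MBD9 under its own promoter, as a fourth-generation (T4) transgenic line in the mbd9-3 mutant. The control plants were wild type without a tag. Material is labelled both as seedlings and as shoots, and each group has 1 library of pooled plants, so nothing below could be checked against a replicate or tested between plants.

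MBD9 carries a methyl-CpG-binding domain and associates with SWR1, a complex that exchanges histone H2A for the variant H2A.Z in nucleosomes. The question was which genes of the auxin response lie at sites that MBD9 occupies. The data are peak summits, single bases at which enrichment over the wild-type FLAG library was highest, each with a score that is -log10 of the q value of the peak caller. A score ranks summits within this list and is not a measure of fold enrichment. The list holds 13993 summits in 10348 peaks, with a median score of 10.1 and quartiles of 5.41 and 20.8. Read numbers were not given in the files used here, so the depth is unknown, and a gene without a summit is one at which none was detected at this depth.

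In auxin signalling, Aux/IAA proteins bind ARF proteins at promoters and recruit TOPLESS corepressors, which keeps auxin-responsive genes off. Auxin joins an Aux/IAA protein to the F-box receptor TIR1 or a related AFB protein. The Aux/IAA is then degraded, which frees the ARF. Many Aux/IAA genes are themselves induced by auxin within minutes, through ARF binding to short auxin response elements of the TGTC type in their promoters, and so form a feedback loop. ARF genes are the DNA-binding side of the pathway and are in general less induced by auxin.

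Of the 42 genes, 24 had at least 1 summit within 1 kb upstream of the transcription start site (TSS) or inside the gene, and 18 had none. The 24 genes carried 43 distinct summits. Aux/IAA genes held 31 of them in 21 peaks, and ARF genes held 12 in 10 peaks. Aux/IAA summits lay both upstream and inside genes, whereas ARF summits lay mostly at the start of the transcript. The map of summits by distance from the TSS shows all 42 genes.

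**Figure D1:**
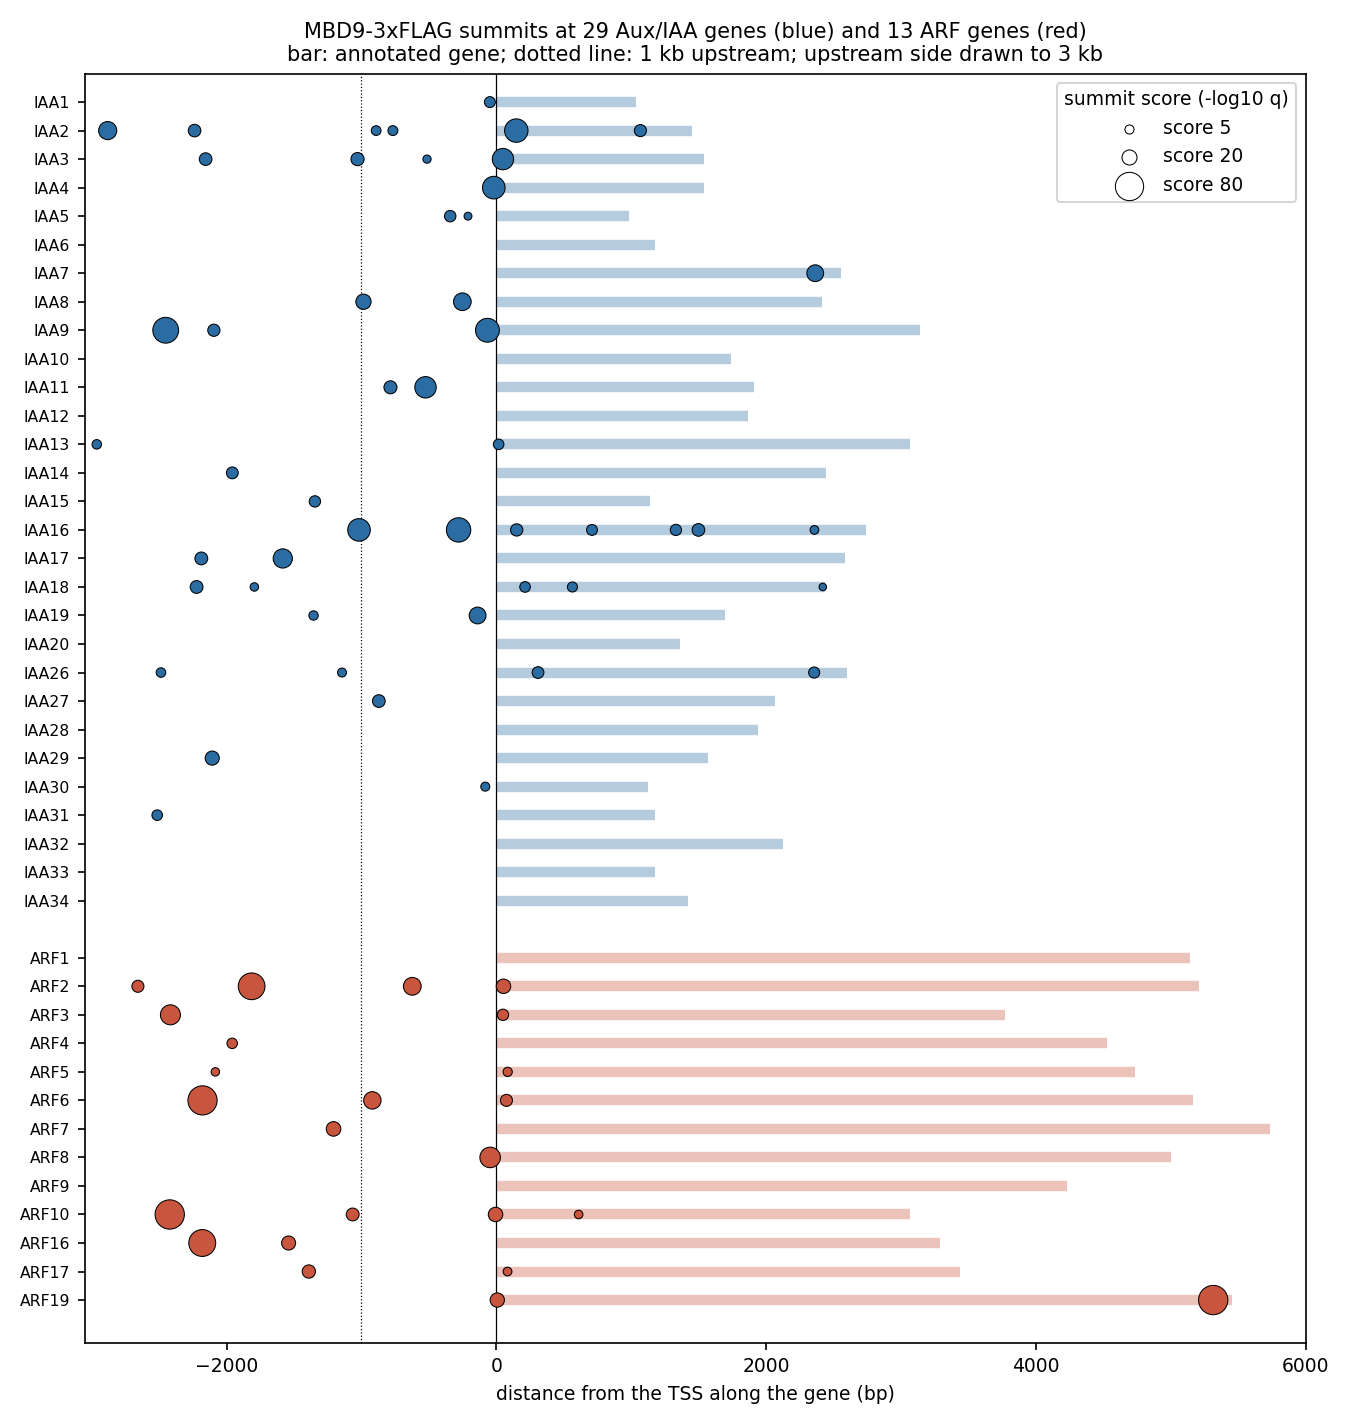
Summits at each of the 29 Aux/IAA genes (blue, upper rows) and 13 ARF genes (red, lower rows). The x axis is the distance from the TSS in bp along the gene, bars are annotated genes, and the area of each point grows with the summit score (-log10 q). Of the ARF genes, 8 have a summit within 100 bp of the TSS, and 13 Aux/IAA and 5 ARF rows have no point from 1 kb upstream to the gene end.

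The sequences of 7 summits near the start of Aux/IAA genes are shown first, selected because they hold a TGTC element. Here this term covers only the searched forms, TGTCTC or TGTCGG or TGTCCC. The summits 151 bp inside IAA16 and 210 bp upstream of IAA5 also hold TGTCGG and are not shown. Not every summit near the start holds a searched form. The one 17 bp inside IAA13 and those in the 5′ UTR of IAA18 and IAA26 hold none of them. The windows 17 bp inside IAA13 and 564 bp inside IAA18 do hold TGTC followed by other bases, which was not searched. Each sequence shown is the summit base with 50 bases on either side, from the RefSeq copy of TAIR10.1, written 5′ to 3′ on the strand of the gene. Capitals mark matches on either strand. They are the auxin response elements TGTCTC and TGTCGG, the variant TGTCCC, which was added after seeing such sequences and is the only TGTC element at IAA2, IAA3, IAA4 and IAA9, the G-box CACGTG with the overlapping core of the abscisic acid response element, ACGTGG, and the E-box CACATG.
IAA1 chr4:8360898-8360998 (+ strand): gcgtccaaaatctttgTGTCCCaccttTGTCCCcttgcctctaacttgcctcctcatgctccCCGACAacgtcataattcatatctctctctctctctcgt
IAA2 chr3:8181897-8181997 (- strand): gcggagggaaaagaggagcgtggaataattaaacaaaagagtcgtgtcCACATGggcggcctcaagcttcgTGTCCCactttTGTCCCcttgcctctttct
IAA3 chr1:1129590-1129690 (- strand): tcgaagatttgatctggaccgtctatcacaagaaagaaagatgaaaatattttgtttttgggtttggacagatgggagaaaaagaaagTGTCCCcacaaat
IAA4 chr5:17550110-17550210 (+ strand): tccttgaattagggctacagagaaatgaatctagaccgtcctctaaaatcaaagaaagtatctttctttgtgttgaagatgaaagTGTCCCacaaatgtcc
IAA9 chr5:26253292-26253392 (+ strand): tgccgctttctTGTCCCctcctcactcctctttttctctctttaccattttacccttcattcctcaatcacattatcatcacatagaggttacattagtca
IAA19 chr3:5263812-5263912 (+ strand): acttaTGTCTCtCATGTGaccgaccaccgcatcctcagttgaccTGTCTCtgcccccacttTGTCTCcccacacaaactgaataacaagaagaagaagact
IAA30 chr3:22995554-22995654 (+ strand): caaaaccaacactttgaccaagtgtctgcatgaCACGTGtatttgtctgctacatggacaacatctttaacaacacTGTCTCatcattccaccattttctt
IAA1 (AT4G14560) and IAA2 (AT3G23030) are closely related genes, and the sequences under their summits hold 2 copies of TGTCCC each. Those summits lie 48 bp upstream of the TSS of IAA1 and 148 bp inside IAA2. They share an unbroken run of 17 bases, tttgtccccttgcctct, which was the longest run in 870 pairs of member sequences from different genes, where the median was 7 bases. IAA3 (AT1G04240) and IAA4 (AT5G43700), another related pair, hold 1 TGTCCC each and share a run of 11 bases. A run of at least that length was reached by 22 pairs, so it does not set them apart. IAA19 (AT3G15540) has 3 copies of TGTCTC and a CATGTG, the other strand of CACATG, in this window.

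The region up to 1 kb upstream of the TSS contained a summit at 12 of the 29 Aux/IAA genes, or 41.4% (95% Wilson interval 25.5 to 59.3). The share was 17.3% of the other protein-coding genes (4736 of 27402). All Wilson intervals cover counting error only. Of the Aux/IAA genes, 4 (13.8%) had more than 1 upstream summit, against 3.27% of the other protein-coding genes. IAA2, IAA5, IAA8 and IAA11 are those genes. At each of them the upstream summits belong to a single peak, so none of them had separate upstream peaks. How often this holds for other protein-coding genes was not counted. With only genes that have at least 1 kb of free space upstream, a restriction chosen after seeing the data, the Aux/IAA share was 45.5% (10 of 22, Wilson interval 26.9 to 65.3) against 19.8% of other protein-coding genes.

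Among ARF genes, 4 of 13 had a summit within 1 kb upstream, or 30.8% (Wilson interval 12.7 to 57.6), against the same background of 17.3%. The Aux/IAA share was 10.6 percentage points above the ARF share, and the intervals of both families overlap widely. This order is not stable. With summits of a score of at least 10, the Aux/IAA share was 27.6% and the ARF share 30.8%. With every annotated transcript start in place of the gene start, the shares were 44.8% and 53.8%. Limited to genes with 1 kb of free space upstream, the ARF share was 18.2% (2 of 11, Wilson interval 5.14 to 47.7) against 19.8% of other protein-coding genes. The 13 ARF genes are not the whole ARF family. Outside them, 1 of 10 other ARF genes had a summit within 1 kb upstream and 0 of 10 had one inside.

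Inside the gene, the order of the families was the other way round. Of the Aux/IAA genes, 7 of 29 had a summit, or 24.1% (Wilson interval 12.2 to 42.1). Of the ARF genes, 7 of 13 did, or 53.8% (29.1 to 76.8), but only 23.1% did when summits needed a score of at least 10. The background was 13.6% of the other protein-coding genes. The Aux/IAA share was 29.7 percentage points below the ARF share, and it stayed below it in each of the 4 other settings tried, by 5.9 to 23.6 points. ARF genes are longer, with a median of 4736 bp against 1740 bp for Aux/IAA genes and 2078 bp for other protein-coding genes. Per kb of gene there were 0.278 summits in Aux/IAA, 0.136 in ARF and 0.095 in other protein-coding genes (summits over total gene length). IAA16 alone holds 5 of the 15 Aux/IAA summits. Genes with a summit inside numbered 0.13 per kb in Aux/IAA and 0.119 per kb in ARF, nearly level, against 0.0571 per kb in other protein-coding genes. Among the other protein-coding genes within the length range of the ARF genes, 17.4% (976 of 5613) had a summit inside, and within that of the Aux/IAA genes 14.4% did.

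Over both windows, 16 of 29 Aux/IAA genes (55.2%) and 8 of 13 ARF genes (61.5%) had a summit, against 26.0% of other protein-coding genes. Both windows held a summit in 6 genes, IAA2, IAA3, IAA16, ARF2, ARF6 and ARF10.

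**Figure D2:**
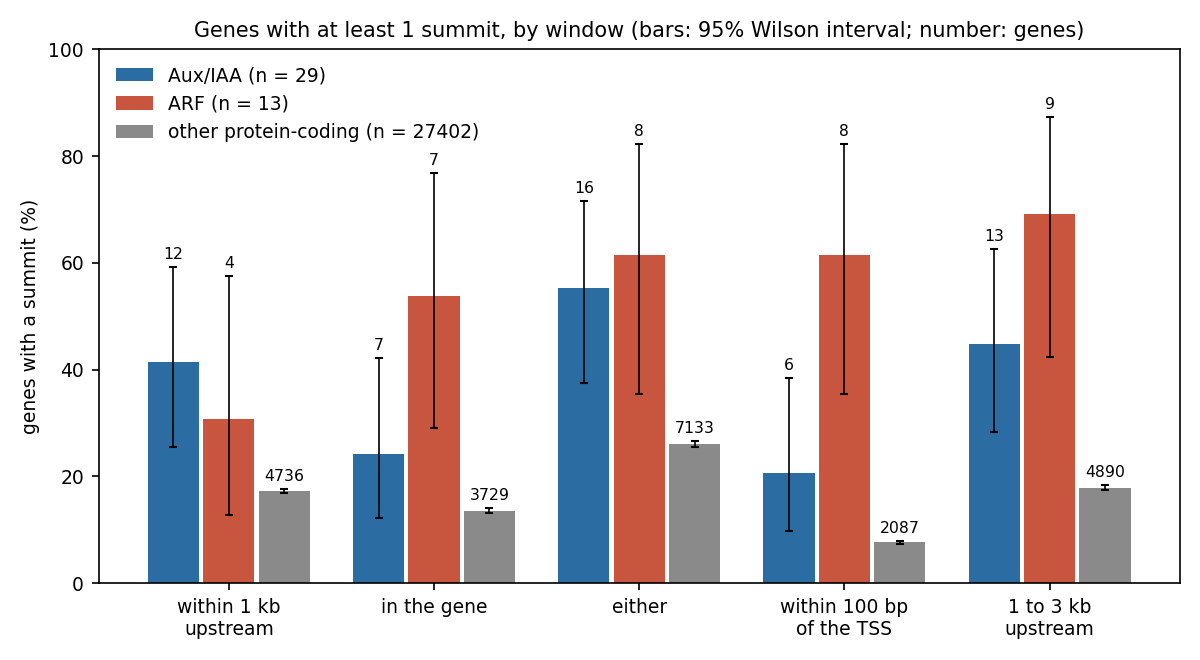
Share of genes (%) with at least 1 summit in each window, for Aux/IAA genes (blue), ARF genes (red) and other protein-coding genes (grey), with 95% Wilson intervals and the number of genes above each bar. In every window shown both families lie above the other protein-coding genes, and the ARF bar stands farthest above them within 100 bp of the TSS, at 61.5% against 7.62%.

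The families also differed in how close their summits lay to the TSS. Within 100 bp of the TSS, a window chosen after seeing the positions, a summit was found at 6 of 29 Aux/IAA genes (20.7%, Wilson interval 9.85 to 38.4). Among ARF genes it was 8 of 13 (61.5%, 35.5 to 82.3), against 7.62% of other protein-coding genes. The intervals of the families overlap slightly. Every ARF gene among the 13 members with a summit upstream or inside had one within 100 bp of the TSS (8 of 8, Wilson interval 67.6 to 100). That held for 6 of 16 such Aux/IAA genes (37.5%, 18.5 to 61.4) and for 29.3% of such other protein-coding genes. ARF18, an ARF gene outside the members, had an upstream summit but none within 100 bp of the TSS. In the length range of ARF genes, 9.91% of other protein-coding genes had a summit within 100 bp of the TSS. Since the window was set from these positions, the difference is a description. It depends on the cut, as the nearest summits of IAA19, IAA2 and IAA16 lay just outside it, at 139, 148 and 151 bp from the TSS. Inside the window the scores were under 10 at ARF3, ARF5 and ARF17 and at IAA1, IAA13 and IAA30. No other cut or score minimum is given for this window.

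Of the summits inside Aux/IAA genes, 7 of 15 lay in the 5′ UTR, 5 in the 3′ UTR, 2 in coding exons and 1 in an intron. The coding exon and intron summits were all in IAA16 and in the same peak, so the other Aux/IAA genes had summits only in UTRs. Places within the transcript were not counted for other protein-coding genes. In ARF genes 6 of 8 lay in the 5′ UTR, 1 in a coding exon and 1 in the 3′ UTR. In the 1 kb past the gene end, 3 Aux/IAA genes (10.3%) and 2 ARF genes (15.4%) had a summit, near the 12.1% of other protein-coding genes.

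Scores of upstream summits ranged from 2.84 to 58.4 at Aux/IAA genes, with a median of 13.7 over 16 summits. At ARF genes the 4 upstream summits scored 18.3, 28.1, 29.4 and 40.4, with a median of 28.8. The 5083 upstream summits of other protein-coding genes had a median of 11.3 and quartiles of 5.89 and 23.1. The Aux/IAA scores thus extended past both of these quartiles, and 3 of the 4 ARF scores lay above its upper quartile. Inside genes the medians were 9.56 for Aux/IAA (15 summits), 10.7 for ARF (8 summits) and 7.66 for other protein-coding genes (6069 summits).

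**Figure D3:**
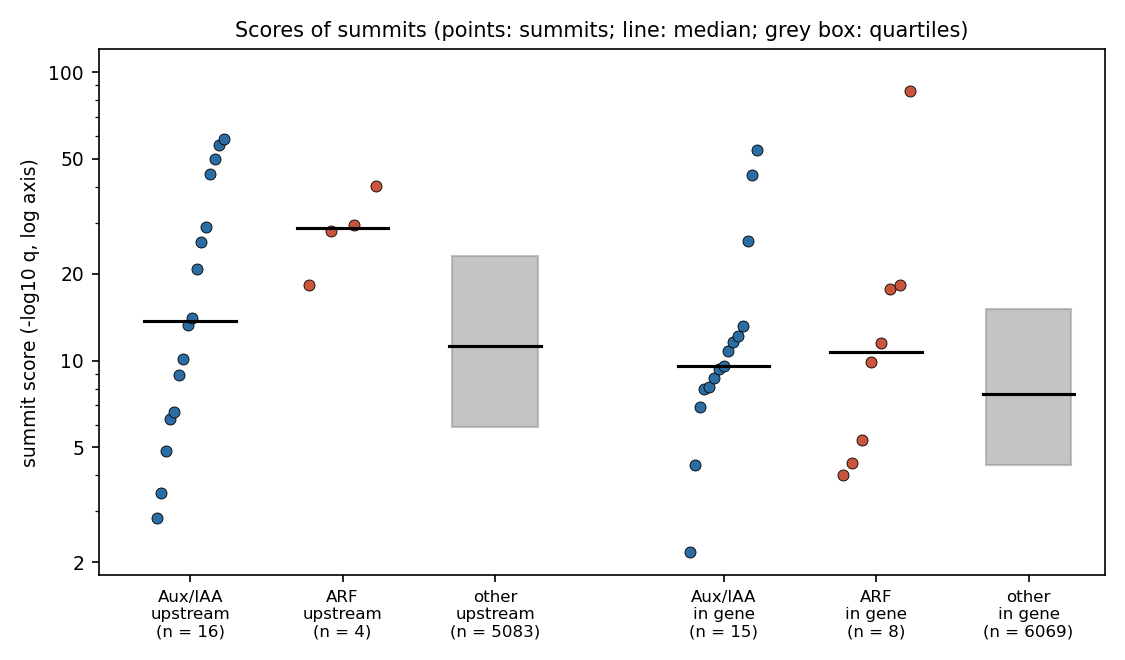
Scores (-log10 q, log axis) of summits within 1 kb upstream and in the gene, for Aux/IAA genes (blue points), ARF genes (red points) and other protein-coding genes (grey box from lower to upper quartile). Black lines are medians, 13.7, 28.8 and 11.3 upstream and 9.56, 10.7 and 7.66 in the gene.

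Among Aux/IAA genes the highest upstream score was at IAA16 (AT3G04730), a gene in which a stabilizing mutation limits growth and lowers the response to auxin and abscisic acid. Its summit of 58.4 lay 280 bp upstream, in a peak with 6 summits that ran from 1018 bp upstream (score 49.6) into the gene. IAA16 also had the most summits inside the gene, 5, with scores from 4.34 to 13.2. IAA9 (AT5G65670), whose tomato counterpart acts in leaf shape and fruit set, followed with 55.9 at 66 bp upstream, inside the lncRNA gene AT5G09425. IAA4 had 49.9 at 19 bp upstream. IAA11 (AT4G28640) had 44.3 at 525 bp upstream and 14.1 at 785 bp upstream, and both of its summits also lie within 1 kb upstream of ABCB23, a transporter gene on the other strand. These 4 genes hold the upstream Aux/IAA summits above 40.

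IAA8 (AT2G22670), a close relative of IAA9, had summits of 29.03 and 20.8 at 252 and 985 bp upstream, both also upstream of MIR405a. IAA19, in which dominant mutations (msg2) disturb the bending of hypocotyls towards light, had 25.8 at 139 bp upstream. IAA27 (AT4G29080) had 13.3 at 871 bp upstream. IAA5 (AT1G15580) had 10.1 and 2.84 at 342 and 210 bp upstream, both also within 1 kb upstream of the neighbour AT1G15590. IAA1, the gene of the axr5 mutant, had 8.88. IAA2 had 6.63 and 6.28 at 767 and 891 bp upstream, and IAA3, the SHY2 gene that balances cell division and differentiation in the root, had 3.47 at 514 bp upstream. For IAA2 and IAA3 the stronger summits lay inside the 5′ UTR, 53.8 at 148 bp and 44.0 at 49 bp past the TSS. The weak upstream values of these genes therefore do not give their highest summit.

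IAA30 (AT3G62100) was the only non-canonical Aux/IAA gene with a summit upstream or inside. Its score was 4.86 at 82 bp upstream. Non-canonical members (IAA20 and IAA30 to IAA34) lack the complete degron through which TIR1 recognizes the others. Of these 6 genes 1 had a summit upstream and 0 had one inside, where a count of 0 of 6 has an upper Wilson bound of 39%. Of the 23 canonical genes, 11 (47.8%) had an upstream summit and 15 (65.2%) one in either window. With 6 genes the interval of the non-canonical share, 3.01 to 56.4%, covers most of that of the canonical genes for the upstream window (29.2 to 67).

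Canonical genes with summits only inside were IAA7, IAA13, IAA18 and IAA26. IAA7 (AT3G23050), the AXR2 gene of shoot and root gravitropism, had 25.9 in its 3′ UTR, 2364 bp past the TSS. IAA26 (AT3G16500) had 10.8 in the 5′ UTR and 9.32 in the 3′ UTR. IAA18 (AT1G51950), a regulator of embryo patterning, had 8.11 and 6.92 in the 5′ UTR and 2.18 in the 3′ UTR, the last of these next to the cutoff of 2.0. IAA13 (AT2G33310), a relative of IAA12, had 7.97 at 17 bp past the TSS. Only the IAA7 score lay above the upper quartile of the list.

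The 6 highest-scoring upstream summits without a searched form of the TGTC element close by are shown next, from both families, with the same use of capitals. Those of IAA16, ARF8 and ARF2 do hold TGTC followed by other bases.
IAA16 chr3:1291121-1291221 (- strand): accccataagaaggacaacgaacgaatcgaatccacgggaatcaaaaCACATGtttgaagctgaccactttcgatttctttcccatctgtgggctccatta
IAA11 chr4:14141488-14141588 (+ strand): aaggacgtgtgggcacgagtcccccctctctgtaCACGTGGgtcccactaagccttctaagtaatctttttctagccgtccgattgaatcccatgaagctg
ARF8 chr5:14629357-14629457 (+ strand): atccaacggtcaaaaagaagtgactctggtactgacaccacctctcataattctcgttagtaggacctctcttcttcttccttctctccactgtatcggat
ARF2 chr5:24909518-24909618 (+ strand): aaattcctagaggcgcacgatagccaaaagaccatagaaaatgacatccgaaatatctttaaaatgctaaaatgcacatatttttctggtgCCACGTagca
IAA8 chr2:9636044-9636144 (+ strand): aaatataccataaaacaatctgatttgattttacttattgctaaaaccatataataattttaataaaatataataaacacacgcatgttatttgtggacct
ARF6 chr1:10691857-10691957 (- strand): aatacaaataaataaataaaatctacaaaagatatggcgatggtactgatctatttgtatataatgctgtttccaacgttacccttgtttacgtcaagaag
The sequence at IAA11 holds CACGTG, the G-box bound by bZIP and bHLH factors, overlapping ACGTGG, and that at IAA16 holds CACATG. The sequence at ARF2 holds ACGTGG on the other strand, and those at IAA8, ARF6 and ARF8 hold none of the capitalized motifs.

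Among the activator-class ARF genes, whose products have a glutamine-rich middle region and switch on auxin-responsive genes, 4 of 5 had a summit upstream or inside. ARF8 (AT5G37020), which acts with ARF6 in flower maturation, had the highest upstream score of the family, 40.4 at 46 bp upstream. ARF6 (AT1G30330) had 28.1 at 919 bp upstream and 11.5 at 75 bp past the TSS. It also had summits of 48.97 and 46.1 at 18 and 768 bp past the gene end. ARF19 (AT1G19220), a regulator of lateral root formation, had 17.8 at 7 bp past the TSS. Its other summit, 86.2 in the 3′ UTR, was the highest of any member upstream or inside and had rank 162 in the list, but it also lies 131 bp upstream of the neighbouring gene AT1G19210. ARF5 (AT1G19850), the MONOPTEROS gene of embryo axis and vascular development, had 5.31 at 84 bp past the TSS. ARF7 (AT5G20730), the partner of ARF19 in lateral root formation, had none in these windows.

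Among the repressor-class ARF genes, with the targets of the microRNA miR160 counted apart, 2 of 5 had a summit. ARF2 (AT5G62000), a regulator of seed size and leaf senescence, had 29.4 at 623 bp upstream, inside the lncRNA gene AT5G09045, and 18.3 at 53 bp past the TSS. ARF3 (AT2G33860), the ETTIN gene of carpel patterning, had 9.88 at 49 bp past the TSS. ARF1, ARF4 and ARF9 had none. Of the ARF genes whose mRNAs are cut by the microRNA miR160, ARF10 (AT2G28350) had 18.3 at 6 bp upstream and 4.02 in a coding exon, and ARF17 (AT1G77850) had 4.4 at 83 bp past the TSS. ARF16 had none. The share was thus highest in the activator class, but with 5, 5 and 3 genes the Wilson intervals, 37.6 to 96.4% for the activator class and 11.8 to 76.9% for the repressor class, overlap.

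No summit lay within 1 kb upstream or inside 13 Aux/IAA genes and 5 ARF genes. The Aux/IAA genes were IAA6, IAA10, IAA12, IAA14, IAA15, IAA17, IAA20, IAA28, IAA29 and IAA31 to IAA34. They include IAA12, the BODENLOS partner of ARF5 in the embryo, IAA14, the SOLITARY-ROOT gene of lateral root initiation, and IAA17, the AXR3 gene of root growth. The ARF genes were ARF1, ARF4, ARF7, ARF9 and ARF16. Repeated sequence, in which reads cannot map uniquely, was rare at the members. Between 87.1% and 100% of the 50-mers in their upstream regions occur once in the nuclear genome, and the median was 100%.

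Farther from the gene, from 1 to 3 kb upstream, a window chosen after seeing the data, a summit was found at 13 of 29 Aux/IAA genes (44.8%) and 9 of 13 ARF genes (69.2%), against 17.8% of other protein-coding genes. Space upstream differs between these groups, with a median of 2008 bp to the next gene for Aux/IAA, 4048 bp for ARF and 718.5 bp for other protein-coding genes. Among genes with at least 3 kb free upstream the shares were 25% for Aux/IAA (2 of 8), 71.4% for ARF (5 of 7) and 27.5% for other protein-coding genes (895 of 3257). On so few genes the Wilson intervals are wide, 7.15 to 59.1 for Aux/IAA and 35.9 to 91.8 for ARF. The part of free space in the shares was not tested further. Counting everything from 3 kb upstream to the gene end, 21 Aux/IAA genes (72.4%) and 11 ARF genes (84.6%) had a summit, against 35.6% of other protein-coding genes. IAA6, IAA10, IAA12, IAA20, IAA28, IAA32, IAA33, IAA34, ARF1 and ARF9 had none there.

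Of the 12 summits 1 to 3 kb upstream of ARF genes, 4 scored at least 50, a value chosen after seeing the scores. At Aux/IAA genes 1 of 19 did, that of IAA9 (66.0 at 2451 bp upstream), and at other protein-coding genes 363 of 6121 (5.93%). ARF10 had 86.3 at 2421 bp, ARF6 85.4 at 2178 bp, ARF16 (AT4G30080) 72.0 at 2180 bp and ARF2 71.1 at 1814 bp upstream. All of these except that of ARF2 lay outside every annotated gene and over 1 kb from every TSS they are upstream of. The summit at ARF2 lay in the small neighbouring gene AT5G61997. The distal scores of ARF6, ARF10 and ARF2 were each above any score of the same gene within 1 kb upstream or inside. Sequences of the distal summits at ARF6, ARF10 and ARF16 and of the 3′ UTR summit of ARF19 are given because they were the highest-scoring ones of the family.
ARF6 chr1:10693116-10693216 (- strand): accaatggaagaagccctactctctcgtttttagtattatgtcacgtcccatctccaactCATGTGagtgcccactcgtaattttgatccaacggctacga
ARF10 chr2:12111418-12111518 (+ strand): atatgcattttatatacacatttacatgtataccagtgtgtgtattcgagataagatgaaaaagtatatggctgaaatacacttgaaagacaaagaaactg
ARF16 chr4:14708484-14708584 (- strand): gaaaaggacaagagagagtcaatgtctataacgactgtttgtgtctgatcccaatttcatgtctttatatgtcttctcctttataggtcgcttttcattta
ARF19 chr1:6627769-6627869 (- strand): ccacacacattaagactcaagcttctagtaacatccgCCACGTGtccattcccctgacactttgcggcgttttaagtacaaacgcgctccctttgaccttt
The sequence at ARF6 holds CATGTG, that of ARF19 holds a G-box overlapping ACGTGG, and those at ARF10 and ARF16 hold none of the capitalized motifs.

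Some Aux/IAA genes stand side by side in the genome and are transcribed away from each other, so that upstream summits belong to a shared intergenic region. This holds for IAA3 and IAA17, IAA14 and IAA1, and IAA2 and IAA7. The gaps between the TSSs are 6388, 10732 and 12510 bp and contain 5, 4 and 9 summits. Each gap holds 1 lncRNA gene and 0 protein-coding genes. Between IAA2 and IAA7 the farthest summit lay 7932 bp upstream of IAA2, and no summit lay within 3 kb upstream of IAA7. Between IAA3 and IAA17 the highest (34.96) lay 1583 bp upstream of IAA17 and another (13.6) 2187 bp upstream of it. IAA17 and IAA14 had no summit in the 1 kb window, and the nearest were 1583 bp upstream of IAA17 and 1957 bp upstream of IAA14. The summit nearest IAA17 lies inside the lncRNA gene AT1G04253. That nearest IAA14 lies 111 bp upstream of the lncRNA gene AT4G06200. In the IAA2 and IAA7 gap the highest scores were 30.7 and 29.7, at 2881 and 4808 bp upstream of IAA2. The summit of 30.7 lies inside the lncRNA gene AT3G04375.

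**Figure D4:**
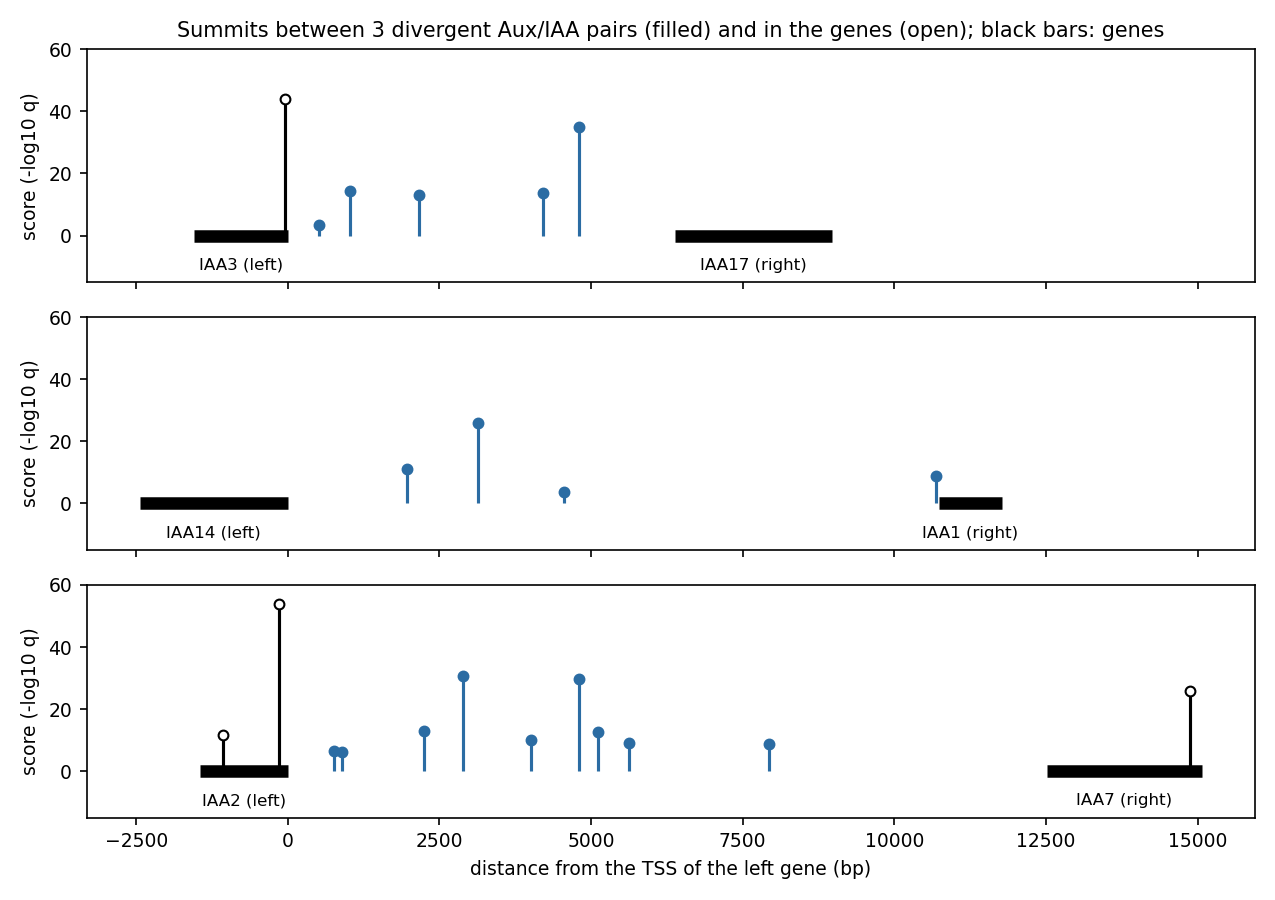
Summit scores (-log10 q, y axis) between 3 divergent Aux/IAA pairs, by distance in bp from the TSS of the left gene. Filled points lie between the genes, open points inside them, and black bars are the genes. The gaps of 6388, 10732 and 12510 bp hold 5, 4 and 9 summits, and the highest point in the plot is the 5′ UTR summit of IAA2, 53.8.

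Short motifs within 50 bp of the summits upstream and inside were compared as shares of summits, searched on both strands. An auxin response element, TGTCTC or TGTCGG, lay at 7 of 31 Aux/IAA summits (22.6%) and 1 of 12 ARF summits (8.33%), against 1091 of 10294 summits of other protein-coding genes (10.6%). TGTCGG lay at 4 Aux/IAA summits (12.9%, against 3.54% of other summits) and TGTCTC at 3 (9.68%, against 7.3%), so the difference in TGTCTC was small. TGTCCC lay at 5 Aux/IAA summits (16.1%, against 3.6%). It was added to the search because it was seen at these summits, so its share is a description only. Over the full 1 kb upstream, TGTCTC was in 17 of 29 Aux/IAA regions (58.6%), 6 of 13 ARF regions (46.2%) and 39.6% of regions of other protein-coding genes. TGTCGG was in 8 of 29 (27.6%), 4 of 13 (30.8%) and 14.6%, so its higher share in Aux/IAA genes was not limited to summits. TGTCCC was in 4 of 29 (13.8%), 1 of 13 (7.69%) and 16.7%, so over this distance neither family had more of it than other genes. In Aux/IAA genes TGTCTC was in 9 of the 12 regions with a summit (75%) and in 8 of the 17 without (47.1%). In ARF genes the split ran the other way, 1 of 4 with a summit and 5 of 9 without (55.6%), and in other protein-coding genes the shares were 41.4% and 39.2%. A match to so short a motif is not evidence of a bound factor.

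CACATG was at 6 of 31 Aux/IAA summits (19.4%), 0 of 12 ARF summits and 7.53% of the other summits. The G-box CACGTG was at 3 (9.68%) and 1 (8.33%), like the other summits (8.33%). Over the full 1 kb upstream, CACGTG was in 50% of Aux/IAA regions with a summit and 11.8% of those without. In other protein-coding genes these shares were 30% and 11.6%. For CACATG they were 83.3% and 47.1% in Aux/IAA genes, and 43% and 36.6% in other protein-coding genes. In ARF genes CACGTG was in 1 of 4 with a summit and 1 of 9 without, and CACATG in 2 of 4 and 6 of 9. GAGAGA, a repeat bound by BPC proteins, was at 8 Aux/IAA summits (25.8%) and 5 ARF summits (41.7%), against 13.2% of the other summits. Mean GC content within 50 bp of upstream summits was 40.3% for Aux/IAA, 33.4% for ARF and 37.4% for other protein-coding genes. At summits inside genes the order was the other way, 37.3% for Aux/IAA, 42.7% for ARF and 41% for other protein-coding genes. The part of base composition in the motif shares was not tested.

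Other genes of the auxin pathway were counted in the same way from lists by function. All 5 TOPLESS corepressor genes had a summit within 1 kb upstream, with top scores of 125 at TPR1, 114 at TPR3, 94.8 at TPL, 77.4 at TPR2 and 9.45 at TPR4. Except for TPR4, each was above the highest upstream score of any Aux/IAA or ARF gene. The TOPLESS genes have a median of 250 bp to the next gene upstream, and 2 of 5 have 1 kb free. The window can thus reach a neighbouring gene, and summits shared with neighbours were not counted here. Of the receptor genes, 4 of 6 had an upstream summit (TIR1, AFB2, AFB3 and AFB4), with top scores from 4.04 to 18.1. Of the GH3 genes, whose enzymes join auxin to amino acids, 4 of 8 had an upstream summit, GH3.1, GH3.2, GH3.3 and GH3.5, with the highest score, 90.4, at GH3.3. Of the auxin transporter genes, 3 of 12 had one, AUX1, LAX1 and LAX3, and 6 of 12 had a summit inside. The highest scores inside genes of these lists, named after their values were seen, were 122 at PIN7, 87.1 at PIN3, 80.5 at TIR1 and 65.7 at YUC6.

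None of the 14 auxin synthesis genes of the TAA and YUC families had a summit within 1 kb upstream (0%, upper Wilson bound 21.5%), and 1 had one inside. Of the 10 ARF genes outside the 13 members, only ARF18 had an upstream summit (20.1) and none had one inside. In 3 of those 10 genes, under 80% of the gene is unique at 50 bp, and the part of this in the result was not tested. Over all 55 genes of these lists, 17 (30.9%) had an upstream summit, against 17.3% of the protein-coding genes outside the 42 members.

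**Figure D5:**
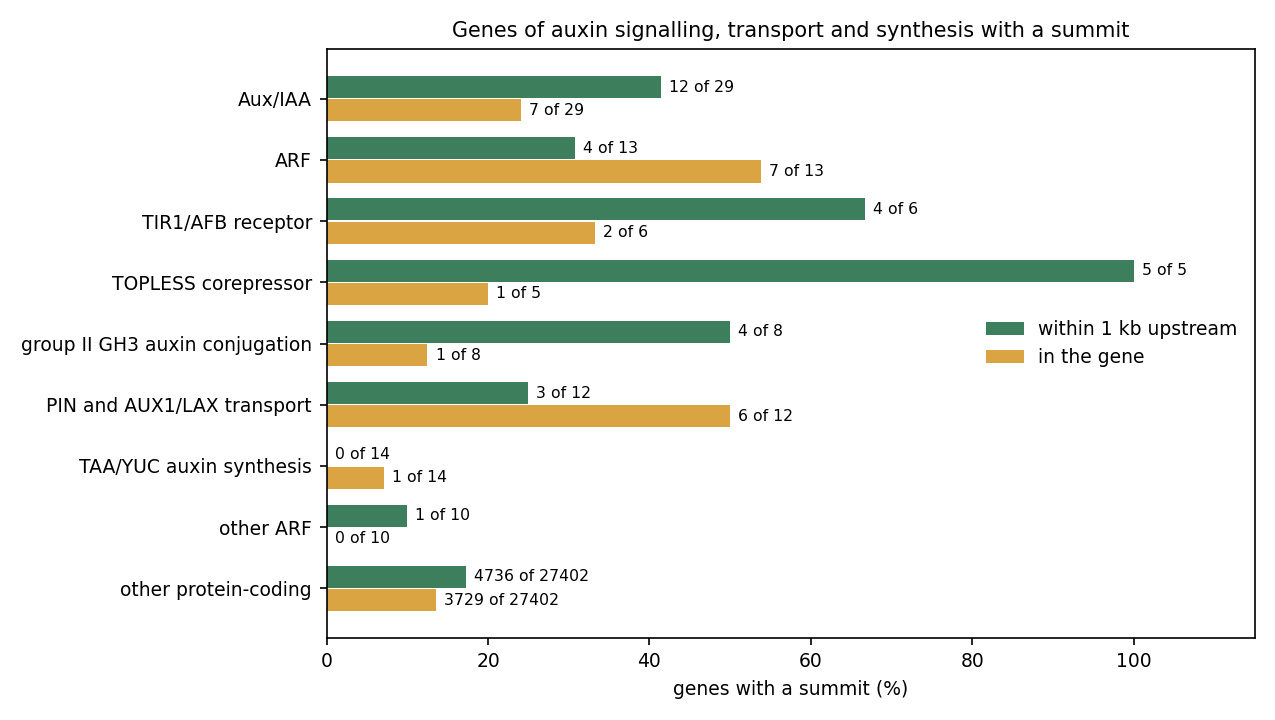
Share of genes (%) with a summit within 1 kb upstream (green) and in the gene (yellow) for each list of auxin genes, with the counts beside the bars. The lists run from 5 of 5 TOPLESS genes with an upstream summit to 0 of 14 TAA and YUC genes, and other protein-coding genes (bottom) have 4736 of 27402.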

How the data were processed

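The authors aligned reads to TAIR10 with Bowtie, kept uniquely mapping reads, removed duplicates with SAMtools and called peaks with MACS2 2.1.1 (q value 0.01, extension size 200), with the wild-type FLAG library as control. The deposited file gives each summit with a score, the -log10 q value. Depth and read coverage were not used here.

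Summits were converted to 1-based positions and assigned to genes of the RefSeq copy of TAIR10.1, whose gene starts may differ from those the authors used. The 5′ end of each gene model was taken as its TSS. A summit counted as upstream within 1 kb of the TSS and as in the gene between its ends. Shares carry 95% Wilson intervals. No test was run, since there is 1 library per group. Window counting was tested on simulated data. The search for 12 motifs covered both strands of the 50 bp around a summit. Every member was to be named, and other auxin genes only with an upstream summit; 4 summits inside such genes were named after their values were seen. The alternatives covered windows, score minima, TSS definitions and summits per peak. Members and lists were chosen with earlier results of these data known. Analyses used Python 3.11.15, NumPy 2.4.6, pandas 2.3.3, SciPy 1.17.1 and Matplotlib 3.10.9.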

Additional observations from a re-analysis of the deposited data

How the results depend on the processing

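The share of ARF genes with an upstream summit was 61.5% with a 2 kb window and also with summits extended by 100 bp, against 30.8% as reported. The ARF share inside the gene was 23.1% with scores of at least 10 and with scores of at least the list median. The median score upstream of ARF genes was 18.3 with every transcript start. The other 35 values lay within the 95% interval of the reported share or Aux/IAA median, or within the range of the 4 reported ARF scores. That range stands in for an interval of the ARF median and is not a 95% interval. All of these are wide for so few genes. The lowest ARF share upstream was 15.4%, and the Aux/IAA median score upstream ranged from 12.1 to 27.4. For Aux/IAA genes the upstream share ranged from 27.6 to 58.6% and stayed 15.2 to 35 percentage points above other protein-coding genes. For ARF genes, the 2 kb window added ARF4, ARF7, ARF16 and ARF17 to the upstream share. The extension by 100 bp added ARF3, ARF5, ARF17 and ARF19, through summits that lie 7 to 84 bp inside these genes. Both score minima removed ARF3, ARF5, ARF10 and ARF17 from the share inside the gene. The cause of the other shifts was not tested. No paired analysis was possible because the tagged line and wild type have 1 library each. No replicate could be left out for the same reason, and the unknown depth limits what an absent summit means.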
